A study of Mus musculus with 6 samples.

Results

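The genes described here are 10 growth factor, growth factor receptor and transforming growth factor beta (TGF-beta) genes of a mouse macrophage RNA-seq experiment: Igf1, Tgfb1, Gdf15, Vegfa, Pdgfa, Pdgfb, Hbegf, Itgb8, Tgfbr1 and Tgfbr2. They were taken by symbol from the 21959 genes of the deposited table, and all 10 passed the filter on low counts that left 10177 genes for testing. The cells were bone marrow-derived macrophages of wild-type mice, which are primary cells grown in culture from marrow. In both groups they were kept for 24 h in conditioned medium mixed in equal parts with fresh complete medium. The medium had been conditioned for 48 h by alveolar macrophages, the macrophages of the lung's air spaces, taken from mice 8 to 12 weeks old. In 1 group of 3 libraries (N051, N052 and N053) those alveolar macrophages were HTR2C-negative, and in the other group of 3 (P051, P052 and P053) they were HTR2C-positive, HTR2C being a serotonin receptor. Nothing in the labels ties the library numbers to separate animals, cultures or media, and p-values here therefore reflect only the spread among the 6 samples, possibly a technical one. A group without conditioned medium was not analysed here.

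Macrophages are a known source of growth factors for neighbouring cells. IGF1 acts through the receptor IGF1R and is a typical product of tissue macrophages, VEGFA drives growth and leakiness of vessels, the PDGF chains act on fibroblasts and smooth muscle cells, HB-EGF acts on epithelial cells through the EGF receptor, and GDF15 is a distant TGF-beta relative released by stressed cells. TGF-beta itself is secreted in a latent form. The integrin of alpha-v and beta-8 chains, the latter encoded by Itgb8, is among the proteins that free it, after which it binds the type II receptor TGFBR2, which brings in and activates the type I receptor TGFBR1, and the signal passes to SMAD transcription factors.

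Total counts were 12843971 to 16031723 per library, and the 10 genes together held 0.0565% to 0.0905% of them. Markers of macrophages summed to 24343 to 26310 reads scaled to library size (CPM) with HTR2C-negative medium and 23038 to 25880 with HTR2C-positive medium, with all 10 markers counted. Of 10 lung epithelial markers, 6 had no count in any library, among them Sftpc, and the sum of the list was at most 0.727 CPM. Htr2c had 0 counts in each library, which allows up to 0.187 to 0.234 CPM. Fibroblast markers summed to 65.2 to 73.2 and 67.6 to 87.6 CPM, platelet and megakaryocyte markers to 453 to 488 and 461 to 628 CPM, nearly all of it Pf4, and neutrophil markers to 954 to 1176 and 1123 to 1415 CPM. Of 9 tested neutrophil markers, 8 had a positive log2 fold change, with a median of 0.46 (0.26 on the corrected scale described below). Values of 3 were higher, and those of 1 lower, at unadjusted p-values under 0.05, and Ly6g had no count. Lymphocyte markers summed to 1.01 to 1.72 and 2.11 to 3.42 CPM, without overlap between the groups (2 tested, median log2 fold change 1.14), and dendritic cell markers to 9.28 to 13.9 and 12.9 to 16.1 CPM. The part of such cells in the values below was not tested. N052 and P051 had the highest correlation of log2 CPM among all pairs of libraries (r = 0.9834), though they belong to different groups. N051 and N053 were next (r = 0.9825). By a chi-square statistic of the counts over its degrees of freedom, N051 and N053 were the closest pair, at 8.56. On that measure N052 and P051 were at 35.5. The source of these likenesses was not tested.

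The receptor genes Tgfbr1 and Tgfbr2 encode chains that signal as a pair, and the ratio of their levels is among the results below, so their upstream sequences are shown side by side. Each is the 250 bases before a RefSeq start of the gene, for Tgfbr1 the upstream one of 2, read 5′ to 3′ on the gene's own strand, from the mouse build GRCm38.p6, which is an earlier build than the GRCm39 of the counts. The Tgfbr1 stretch is chr4:47352972-47353221 on the plus strand, the Tgfbr2 stretch chr9:116175364-116175613 on the minus strand, and neither overlaps an exon of the GENCODE annotation of that build. The bases just after the start were found near the opening of a GENCODE transcript of the gene for Tgfbr1 but not for Tgfbr2. Positions in the Tgfbr2 stretch thus rest on the RefSeq start alone. Capitals mark every match to the letters searched.
Tgfbr1: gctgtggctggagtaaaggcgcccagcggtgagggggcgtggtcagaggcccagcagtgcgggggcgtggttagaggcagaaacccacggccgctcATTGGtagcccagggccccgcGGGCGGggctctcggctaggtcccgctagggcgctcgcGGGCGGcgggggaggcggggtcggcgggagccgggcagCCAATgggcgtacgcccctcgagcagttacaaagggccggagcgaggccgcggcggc
Tgfbr2: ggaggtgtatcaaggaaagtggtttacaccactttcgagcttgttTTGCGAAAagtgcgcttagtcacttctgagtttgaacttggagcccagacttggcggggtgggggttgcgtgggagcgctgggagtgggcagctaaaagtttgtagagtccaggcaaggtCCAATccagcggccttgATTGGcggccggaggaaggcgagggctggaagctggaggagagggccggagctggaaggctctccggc
The Tgfbr1 stretch held the CCAAT box (CCAAT, read on both strands) at positions -154 and -57 from the start, and the GC box (GGGCGG) at -133 and -95. The Tgfbr2 stretch held the CCAAT box at -85 and -68 and the letters TTGCNNAA, a core that C/EBP factors can bind, at -205, and no GC box. Over 32841 such stretches, 33.9% held a CCAAT box, 32.7% a GC box and 9.57% TTGCNNAA. Neither stretch held TATAAA (12.4% of all stretches), the AP-1 letters TGANTCA (6.75%), TGATGNAA (3.45%), the hypoxia core ACGTG (16.6%) or the SMAD palindrome GTCTAGAC (0.167%). A match describes the letters only. RefSeq stretches were at hand for 8 of the 10 genes, and the others were not printed because their letters bear on no comparison here or lie in exons.

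None of the 10 genes passed the correction over all genes tested with edgeR's quasi-likelihood test, and neither did any other gene (0 of 10177, or 0%, at an adjusted p under 0.05, with 1690 at an unadjusted p under 0.05). DESeq2 called 394 genes, Igf1 and Itgb8 among them, and limma-voom called 0. At an unadjusted p under 0.05 there were 3 of 10, against 16.6% of all genes tested. Tgfbr2 was the one with higher values with HTR2C-positive medium (7.90% of all genes), and Igf1 and Itgb8 were those with lower values (8.71%). The 3 libraries of each group did not overlap for 4 genes, Gdf15 and Tgfbr2 on the higher side and Igf1 and Itgb8 on the lower side, where 10.9% and 11.5% of all genes did the same (22.3% in either direction). The median log2 fold change of the 10 genes, always HTR2C-positive minus HTR2C-negative, was -0.09, with 3 positive and 7 negative, against a median of 0.02 over all genes. Of all genes tested, 52.1% had a positive fold change. These shares of all genes are also the ones to set beside the counts of each pathway and marker list. Values below are CPM scaled by TMM factors, as mean ± SD of 3 libraries, HTR2C-negative before HTR2C-positive medium.

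**Figure D1:**
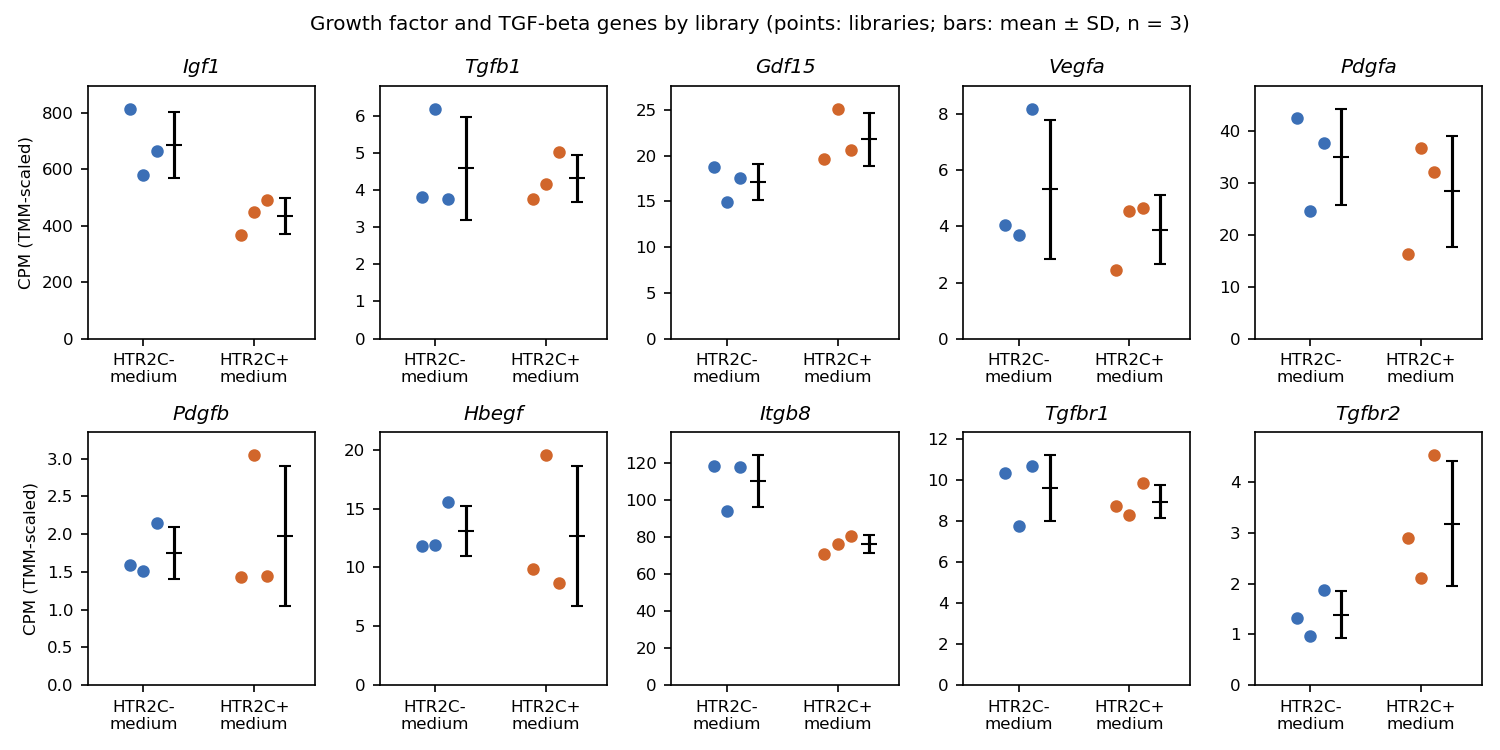
CPM of the 10 genes in each library, scaled by TMM factors. Points are libraries, and the bars give the mean and SD of 3. The groups stand apart for Igf1 and Itgb8 (lower with HTR2C-positive medium) and for Gdf15 and Tgfbr2 (higher), and they overlap for the other 6.

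A property of the libraries moved with these differences. Across genes, the fold change followed the GC content of the transcript, with a median log2 fold change of -0.27 in the bottom quintile of GC (31.0% to 43.4%) and 0.41 in the top quintile (54.6% to 68.7%). Igf1 (38.0% GC), Itgb8 (40.4%) and Tgfbr1 (41.0%) lie in the bottom quintile, Gdf15 (61.3%) and Pdgfb (60.0%) in the top one, and Tgfbr2 (49.6%) in the middle one. Values corrected for GC content and gene length, library by library, are therefore given for the 10 genes and for the other genes named with an unadjusted p under 0.05. On that scale 9.84% of all genes and 2 of the 10, Tgfbr2 and Igf1, had an unadjusted p under 0.05, and the median of the 10 was -0.27. Which part of the trend belongs to the media and which to the libraries cannot be told apart with these groups.

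Among the ligands, Igf1 (ENSMUSG00000020053, chromosome 10, 87694127 to 87772904, plus strand, GRCm39) encodes the insulin-like growth factor and had the highest level of the 10 per length. It was at 814, 581 and 666 CPM in N051, N052 and N053 and at 365, 449 and 492 CPM in P051, P052 and P053. All 3 libraries with HTR2C-positive medium lay below all 3 with HTR2C-negative medium, the nearest being P053 and N052. The means were 687 ± 118 and 435 ± 64.4 CPM (SD, n = 3 each), which is 0.634 of the HTR2C-negative level. The log2 fold change was -0.66 (SE 0.17, 95% interval -1.04 to -0.28), with an unadjusted p of 0.00237 and an adjusted p of 0.113 by edgeR. With the GC and length trend removed it was -0.35 (unadjusted p = 0.0438). DESeq2, and edgeR without the count filter, gave adjusted p-values of 0.0140 and 0.0163. Without N052 edgeR's adjusted p was 0.0494, and without both N052 and P051 it was 0.000881. Leaving out any other single library gave edgeR's adjusted p-values of 0.121 (without P051) to 0.574 (without N051), with log2 fold changes of -0.53 and -0.52 for these. The replicate block gave 0.365, and the range over all alternatives was 0.000881 to 0.803. Its low end came from leaving out N052 and P051, picked in these same data as the libraries with the highest correlation of log2 CPM. As they belong to different groups, leaving both out favours low p-values, and 1107 genes were then called over the whole table. In bulk RNA, fewer cells of a type and less RNA per cell cannot be told apart.

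The rest of the IGF axis lay on both sides of 0. Of 13 tested genes of 21 on that list, Igf1 was the 1 with lower values at an unadjusted p under 0.05. None had higher values, 7 had a positive fold change, and the median was 0.08. Values corrected for GC content and length put that median at -0.11, on the other side of 0. On that scale 2 genes of the list, Igf1 among them, had lower values at the same threshold and 0 had higher ones. The related ligand gene Igf2 had 0 counts in each library, as had Igfbp1 and Igfals, which encode carrier proteins of IGF in blood. The receptor gene Igf1r was low, at 2.37 ± 0.571 and 2.21 ± 0.0901 CPM (log2 fold change -0.10, SE 0.39), and Igf2r, which encodes a receptor that clears IGF2, was at 118 ± 25.8 and 101 ± 31.5 CPM (-0.22, SE 0.23). The other genes with the smallest p were Igfbp4, which encodes an IGF-binding protein (0.57, SE 0.35), Stat5b, which encodes a signal transducer downstream of growth hormone (0.36, SE 0.25), and Irs2, which encodes an insulin and IGF receptor substrate (0.31, SE 0.24). None of these had an unadjusted p under 0.05, and Irs2 was at -0.11 with the GC and length trend removed.

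Tgfb1 (ENSMUSG00000002603, chromosome 7, 25386427 to 25404502, plus strand), the main TGF-beta gene of immune cells, was low. It was at 3.80, 6.18 and 3.76 CPM in N051 to N053 and at 3.76, 4.17 and 5.01 CPM in P051 to P053, from 43 to 90 reads per library. The ranges overlapped, and the highest value was that of N052. The means were 4.58 ± 1.39 and 4.31 ± 0.638 CPM, and the log2 fold change of -0.09 had a 95% interval of -0.77 to 0.59 (adjusted p = 0.910 by edgeR). Without N052 the log2 fold change was 0.20, and corrected for GC content and length it was -0.27.

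Gdf15 (ENSMUSG00000038508, chromosome 8, 71082043 to 71085106, minus strand) encodes a stress-induced hormone of the TGF-beta superfamily. Its level was 18.8, 15.0 and 17.5 CPM in N051 to N053 and 19.6, 25.1 and 20.7 CPM in P051 to P053. Every library with HTR2C-positive medium was above every other one, by a narrow margin between P051 and N051. In deposited FPKM, which is not scaled by TMM factors, P051 was at 11.9 and N051 at 8.95. The means were 17.1 ± 1.96 and 21.8 ± 2.93 CPM, with a log2 fold change of 0.35 (SE 0.19, 95% interval -0.06 to 0.76, adjusted p = 0.370 by edgeR). Once corrected for GC content and length, the log2 fold change was -0.13, so its direction depends on that step. Over the 16 alternatives it ran from -0.13 to 0.49, the latter with total counts alone, and 2 had the other sign. An unadjusted p under 0.05 was seen in 2 of them, and adjusted p-values were 0.261 or more. A further list held Gdf15 itself, the gene of its receptor and stress response genes, not all of them inducers of Gdf15. Of its 12 tested genes, 3 had higher and 0 lower values at an unadjusted p under 0.05. A positive fold change was seen for 10, Gdf15 included, and the median was 0.25, or 0.04 with the trend removed. The 3 were Cebpb, a C/EBP transcription factor gene (3.19 ± 1.08 and 7.40 ± 2.55 CPM, log2 fold change 1.20, SE 0.34), Cdkn1a, the p21 cell cycle inhibitor gene (0.43, SE 0.16), and Atf4, the transcription factor gene of the integrated stress response (0.34, SE 0.15). With the trend removed they were at 0.55, 0.16 and 0.06, each with an unadjusted p above 0.05. Gfral, the gene of the GDF15 receptor, had 0 counts in each library.

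On the list of TGF-beta superfamily ligands, 19 genes with Bmp1 among them, 7 passed the count filter and 5 had no count in any library. Inhba, which encodes the subunit of activin A, had the highest level of them per length, with 152 ± 27.3 and 112 ± 14.8 CPM (-0.43 on the log2 scale, SE 0.17, unadjusted p = 0.0245). Gdf11, a relative of myostatin, was at 14.3 ± 4.42 and 8.37 ± 1.40 CPM (-0.76, SE 0.26). Bmp1, which despite its name encodes a protease of the matrix, was at 3.64 ± 0.807 and 6.01 ± 0.575 CPM (0.72, SE 0.29). These 3 were the ones with an unadjusted p under 0.05. The 2 ligand genes were on the lower side, and Bmp1, no ligand gene, was the 1 on the higher side. The list median was -0.09. With the GC and length trend removed Gdf11 was at -0.96, Inhba at -0.19 and Bmp1 at 0.28. Tgfb2 was at 0.696 ± 0.270 and 1.08 ± 0.744 CPM, and Tgfb3 did not pass the filter.

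Vegfa (ENSMUSG00000023951, chromosome 17, 46327919 to 46343295, minus strand) was at 4.06, 3.71 and 8.20 CPM in the libraries with HTR2C-negative medium. With HTR2C-positive medium it was at 2.45, 4.56 and 4.65 CPM. The groups overlapped, and N053 alone stood high, with 122 reads where the other 5 libraries had 43 to 77. The log2 fold change was -0.46 (SE 0.38, 95% interval -1.28 to 0.36, adjusted p = 0.571 by edgeR), while it was 0.02 without N053 and -0.56 with the trend removed. Of 9 tested genes of the VEGF family and its receptors none had an unadjusted p under 0.05 in either direction, 7 had a positive fold change and the median was 0.24. The receptor gene Kdr was at 10.1 ± 0.556 and 11.9 ± 2.09 CPM (0.24, SE 0.22), Nrp2, which encodes a co-receptor, at 179 ± 41.1 and 230 ± 43.7 CPM (0.36, SE 0.20), and the receptor gene Flt4, near the lower limit of the test, at 0.420 ± 0.0750 and 1.03 ± 0.350 CPM (1.28, SE 0.68).

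Vegfa is a textbook target of the hypoxia-inducible factor, so the other genes of that response were read beside it. Of 25 tested, 2 had higher and 3 lower values at an unadjusted p under 0.05, and the median was -0.06. Kdm3a, a histone demethylase gene, stood at 37.0 ± 5.28 and 24.2 ± 4.37 CPM (-0.61 on the log2 scale, SE 0.19), and Bnip3, a mitophagy gene, at 40.6 ± 3.95 and 27.7 ± 2.16 CPM (-0.55, SE 0.16). Ddit4, an inhibitor of mTOR signalling, was at 1.45 ± 0.158 and 3.31 ± 2.08 CPM (1.18, SE 0.48), with P052 as its highest library at 5.69 CPM. Once corrected for GC content and length Kdm3a was at -0.52 (unadjusted p = 0.0110), while Bnip3, at -0.21, and Ddit4, at 0.85, had unadjusted p-values of 0.178 and 0.102. The other 2 with a p under 0.05, named after their values were seen, were the oxygen sensor gene Egln2 (0.72, SE 0.31) and Ero1a, a gene of disulfide formation (-0.34, SE 0.15), at 0.20 and -0.10 with the trend removed. The hypoxia list thus had values on both sides.

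Pdgfa (ENSMUSG00000025856, chromosome 5, 138961769 to 138983125, minus strand) and Pdgfb (ENSMUSG00000000489, chromosome 15, 79880075 to 79899178, minus strand) encode the chains of platelet-derived growth factor. Pdgfa was at 42.5, 24.6 and 37.6 CPM in N051 to N053 and at 16.3, 36.6 and 32.1 CPM in P051 to P053. Its lowest libraries were P051 and N052, 1 of each group. Pdgfb was, in the same order, at 1.59, 1.51 and 2.15 CPM and at 1.43, 3.04 and 1.45 CPM, from 18 to 46 reads, and P052 alone stood high. The groups overlapped for both genes, with log2 fold changes of -0.30 (SE 0.28, 95% interval -0.90 to 0.30) for Pdgfa and 0.16 (SE 0.47, 95% interval -0.85 to 1.18) for Pdgfb. Without P052 the value of Pdgfb was -0.29. On the scale corrected for GC content and length Pdgfb was at -0.35 and Pdgfa at -0.42.

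The receptor gene Pdgfrb stood at 3.73 ± 0.692 and 6.17 ± 1.00 CPM (0.72 on the log2 scale, SE 0.29, unadjusted p = 0.0267). It was at 0.39 with the trend removed (unadjusted p = 0.210). It was the 1 gene of 5 tested on the PDGF list with a p under 0.05 before that step, while Pdgfra did not pass the count filter. Pdgfc, a further ligand gene, was at -0.72 (SE 0.91) and the receptor-like gene Pdgfrl at -0.27 (SE 0.46). Pdgfrb is also a marker of fibroblasts and pericytes, and the sum of the fibroblast list is given above. Of 8 tested markers on it, 6 had a positive log2 fold change, with a median of 0.48, or 0.21 with the trend removed. The groups did not overlap for 2 of them on the higher side and 1 on the lower side. The part of such cells in the value of Pdgfrb was not tested. Platelets carry PDGF. Of 4 tested platelet and megakaryocyte markers, 2 had a positive fold change, and the median was -0.09, or 0.03 with the trend removed. The groups did not overlap for 1 marker on the higher side and 1 on the lower side. Only 1 marker passed an unadjusted p of 0.05. This was Itga2b, an integrin gene, at 4, 7 and 6 reads in N051 to N053 and 31, 20 and 31 in P051 to P053 (1.98 on the log2 scale, SE 0.59, and 1.51 with the trend removed). Gp1bb had no count in any library, Gp9 had 0 to 2 reads and 5 to 6 reads, and the part of platelets in Pdgfa and Pdgfb was not tested.

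Hbegf (ENSMUSG00000024486, chromosome 18, 36637980 to 36648858, minus strand) was at 11.8, 11.9 and 15.6 CPM in N051 to N053 and at 9.86, 19.5 and 8.70 CPM in P051 to P053. The latter group held both the highest library, P052, and the lowest, P053. The log2 fold change was -0.05 (SE 0.29, 95% interval -0.68 to 0.58, adjusted p = 0.946 by edgeR), and it was -0.50 without P052, 0.17 without P053 and -0.18 with the trend removed. HB-EGF is made as a membrane protein and shed by proteases. Of 9 tested genes of the EGF family, its receptors and shedding, Rhbdf2, whose product carries the shedding protease ADAM17 to the surface, was the 1 with an unadjusted p under 0.05 (26.8 ± 3.04 and 44.3 ± 5.89 CPM, log2 fold change 0.73, SE 0.17, adjusted p = 0.0859 by edgeR). It was at 0.23 with the GC and length trend removed. Adam17 itself was at 175 ± 24.0 and 170 ± 51.3 CPM (-0.05, SE 0.20, and 0.06 with the trend removed), and Egfr was low at 2.76 ± 1.02 and 1.60 ± 0.432 CPM. The other ligands Areg, Ereg, Btc, Egf, Tgfa and Epgn did not pass the count filter, so Hbegf was the only EGF receptor ligand of this list that was tested beside the neuregulins Nrg1 and Nrg4.

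Of the proteins that release TGF-beta, Itgb8 (ENSMUSG00000025321, chromosome 12, 119121757 to 119202537, minus strand) was at 119, 94.3 and 118 CPM in N051 to N053 and at 71.2, 76.3 and 80.9 CPM in P051 to P053. The groups did not overlap, and N052 lay nearest to the HTR2C-positive libraries. The means were 110 ± 13.9 and 76.1 ± 4.86 CPM (SD, n = 3 each), a ratio of 0.690. The log2 fold change was -0.54 (SE 0.15, 95% interval -0.86 to -0.21), with an unadjusted p of 0.00361 and an adjusted p of 0.129 by edgeR. The adjusted p was 0.0402 by DESeq2 and 0.00497 by edgeR without N052 and P051. With single libraries left out, edgeR's adjusted p ran from 0.0559 (without N052) to 0.574 (without N051). The replicate block gave 0.365, and the range over all alternatives was 0.00497 to 0.812, with the low end again from leaving out N052 and P051. Once corrected for GC content and length, the log2 fold change was -0.28 with an unadjusted p of 0.0614.

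The integrin's partner chain gene Itgav stood at 68.2 ± 13.8 and 66.4 ± 9.67 CPM (-0.04 on the log2 scale, SE 0.18, and 0.13 with the trend removed). Per length, the ratio of Itgb8 to Itgav FPKM was 1.59 ± 0.158 with HTR2C-negative and 1.12 ± 0.123 with HTR2C-positive medium, without overlap. An exact two-sided permutation test gave p = 0.1, the smallest that 3 against 3 libraries allow, and this ratio was chosen after the values were seen. Among 18 tested genes of latent TGF-beta storage and activation, Itgb8 was the 1 with lower values at an unadjusted p under 0.05. On that list 4 had higher values at that threshold, against 7.90% of all genes. A positive fold change was seen for 15, against 52.1% of all genes, and the median was 0.27, or 0.10 with the trend removed. Mmp14, the gene of a membrane metalloproteinase that can act with this integrin, was at 153, 210 and 197 CPM in N051 to N053 and at 323, 388 and 332 CPM in P051 to P053 (log2 fold change 0.90, SE 0.16, adjusted p = 0.0805 by edgeR). It kept a value of 0.61 with the trend removed. Nrros, whose product tethers latent TGF-beta on myeloid cells, was at 15.4 ± 3.70 and 25.3 ± 6.48 CPM (0.72, SE 0.23, and 0.49 with the trend removed). Tgm2, a transglutaminase gene, was at 0.57 (SE 0.19) and at 0.17 with the trend removed, and the integrin gene Itgb5, named after its value was seen, at 0.51 (SE 0.19) and 0.12. Genes that act on the same latent protein thus had values on both sides, Itgb8 lower and Mmp14 and Nrros higher.

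**Figure D2:**
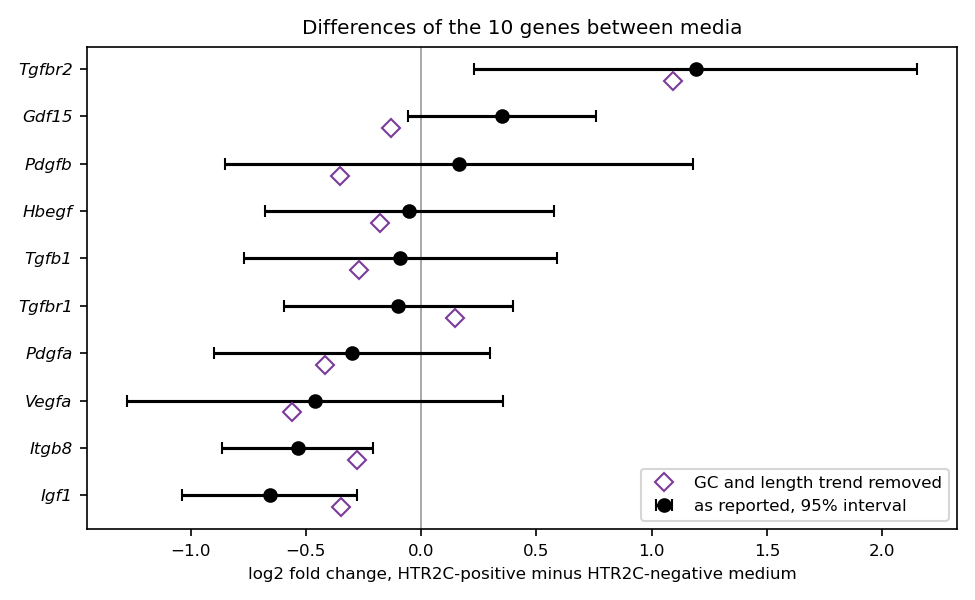
Log2 fold change of each of the 10 genes, HTR2C-positive minus HTR2C-negative medium. Filled points are the fit as reported with its 95% interval, and open diamonds are values corrected for GC content and length. The interval leaves out 0 for Tgfbr2, Itgb8 and Igf1, and the diamonds of Gdf15, Pdgfb and Tgfbr1 lie on the other side of 0 from their points.

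Tgfbr2 (ENSMUSG00000032440, chromosome 9, 115913361 to 116004428, minus strand), the gene of the ligand-binding type II receptor, had the largest difference of the 10 in size and the lowest level per length. It had 15, 14 and 28 reads with HTR2C-negative medium and 51, 32 and 75 reads with HTR2C-positive medium. In CPM these were 1.33, 0.962 and 1.88 against 2.91, 2.12 and 4.53. All HTR2C-positive libraries were higher, P052 only slightly above N053, and all are low values, the 14 reads of N052 having an exact 95% Poisson interval of 7.65 to 23.5 for counting error alone. The log2 fold change was 1.19 (SE 0.44), or 2.28-fold with a 95% interval of 1.17 to 4.45, with an unadjusted p of 0.0190 and an adjusted p of 0.212 by edgeR. It was 1.09 with the GC and length trend removed (unadjusted p = 0.0272). Without P053 it was 0.85 (unadjusted p = 0.114) and without N052 0.98 (unadjusted p = 0.0666). The lymphocyte marker sums given above, of similar size in CPM, were higher with HTR2C-positive medium as well. Of the 2 lymphocyte markers tested, 0 had an unadjusted p under 0.05 by edgeR and 0 had groups without overlap. Medians were also positive for tested fibroblast (0.48), neutrophil (0.46) and dendritic cell markers (0.18). They were negative for endothelial (-0.07) and platelet markers (-0.09). The part of any of these cells in Tgfbr2 was not tested.

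Tgfbr1 (ENSMUSG00000007613, chromosome 4, 47353222 to 47414931, plus strand), the gene of the signalling type I receptor, was at 10.3, 7.76 and 10.7 CPM in N051 to N053 and at 8.72, 8.27 and 9.84 CPM in P051 to P053. The ranges overlapped, with N052 lowest. Its log2 fold change was -0.10 (SE 0.23, 95% interval -0.60 to 0.40, adjusted p = 0.860 by edgeR), and 0.15 with the trend removed. Per length, Tgfbr1 exceeded Tgfbr2 in every library, by 9.77, 10.1 and 7.12 times with HTR2C-negative medium and by 3.76, 4.89 and 2.72 times with HTR2C-positive medium. The ratios of the 2 groups did not overlap (exact two-sided permutation p = 0.1, the smallest the design allows), and the ratio was chosen after the values were seen.

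Of 11 tested receptors and co-receptors of the TGF-beta family, 3 had higher and 1 lower values at an unadjusted p under 0.05, and the median log2 fold change was 0.24, or 0.17 with the trend removed. Beside Tgfbr2 the higher ones were Acvrl1, which encodes the receptor ALK1 (6.39 ± 1.79 and 11.0 ± 2.53 CPM, 0.78, SE 0.27), and Eng, which encodes its co-receptor endoglin (31.5 ± 7.91 and 43.8 ± 5.99 CPM, 0.47, SE 0.20). The lower one was the BMP receptor gene Bmpr2 (89.8 ± 16.4 and 61.8 ± 19.1 CPM, -0.54, SE 0.22). With the trend removed Tgfbr2 alone of the 4 kept an unadjusted p under 0.05, and Acvrl1, Eng and Bmpr2 were at 0.43, 0.06 and -0.29. Endothelial cells also express Acvrl1 and Eng. Their markers summed to 14.9 to 19.4 and 16.7 to 20.2 CPM, with Cdh5 at 10 reads or fewer in every library, and their part in these values was not tested.

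Downstream of the receptors, 19 SMAD pathway genes were tested, of which 1 had higher and 2 lower values at an unadjusted p under 0.05, with a median of -0.20. Smad2 stood at 52.3 ± 7.80 and 45.1 ± 5.93 CPM (-0.21 on the log2 scale, SE 0.17) and Smad3 was near 1 CPM in both groups (0.954 ± 0.359 and 1.08 ± 0.167). Tgif1, a repressor of SMAD-driven transcription, was at 256 ± 47.9 and 177 ± 20.4 CPM (-0.54, SE 0.17, and -0.41 with the trend removed). Nedd4l, a ubiquitin ligase gene, was at -0.80 (SE 0.37), and Tab1, a TAK1 partner gene, at 1.43 (SE 0.64), where P051 had 3.76 CPM and the other 5 libraries at most 1.12. On the corrected scale Nedd4l was at -0.70 and Tab1 at 0.97, both with an unadjusted p above 0.05.

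The list of 23 tested TGF-beta target genes held 4 genes with higher values at an unadjusted p under 0.05 and 0 with lower ones, with 18 positive fold changes and a median of 0.20. With the trend removed the median was 0.07 and no gene had an unadjusted p under 0.05. Junb, an AP-1 transcription factor gene, had a log2 fold change of 1.35 (SE 0.53), with 365 CPM in P051 and 40.7 to 112 CPM in the other libraries, and Sparc, named after its value was seen, was at 0.66 (SE 0.27). These were at 0.82 and 0.50 with the trend removed. Cdkn1a, described above, was another of the 4. Smad7 and Pmepa1, feedback inhibitors of the pathway, were at 0.06 (SE 0.61) and 0.09 (SE 0.25), and at -0.40 and -0.19 with the trend removed. Many of these targets respond to other signals as well.

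**Figure D3:**
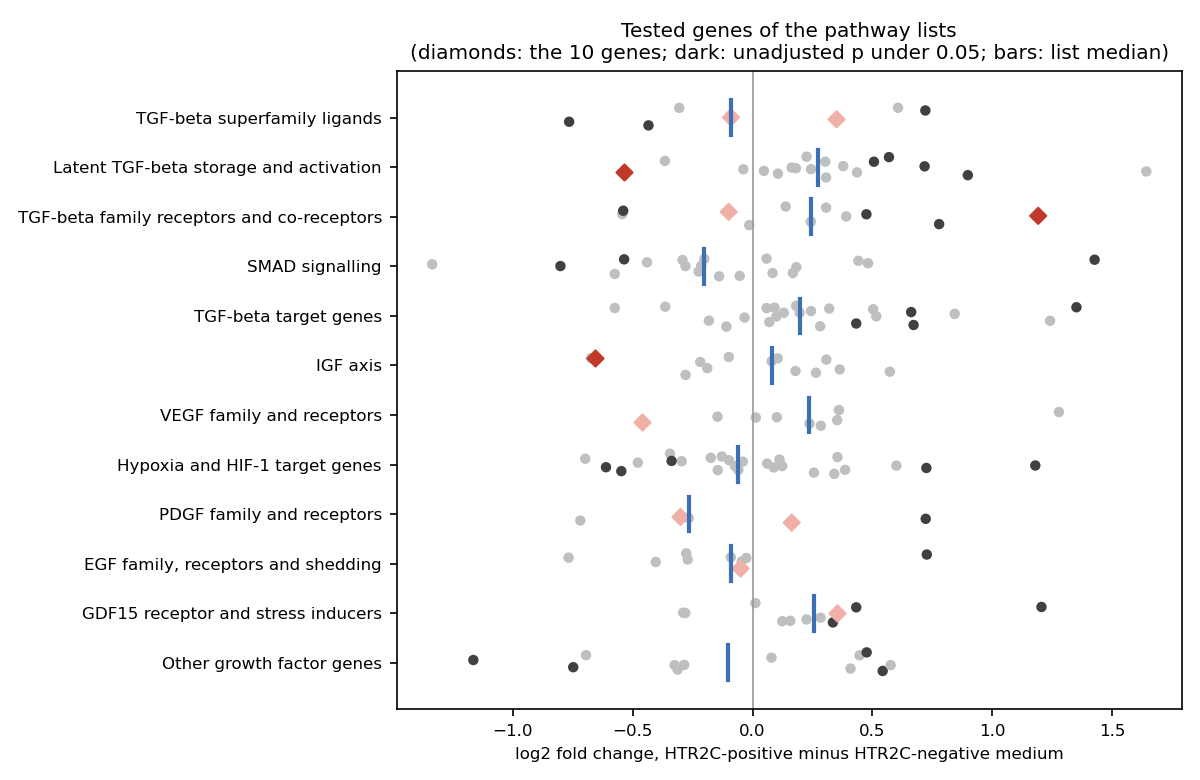
Log2 fold change (HTR2C-positive minus HTR2C-negative medium) of every tested gene of 12 pathway lists. Diamonds are the 10 genes, dark symbols have an unadjusted p under 0.05, and blue bars are list medians. Medians run from -0.27 for the PDGF list to 0.27 for latent TGF-beta storage and activation, and each list holds genes on both sides of 0.

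Over the 12 pathway lists, 159 distinct genes were tested and 33 (20.8%) passed an unadjusted p of 0.05, 21 of them higher and 12 lower. Without the 10 genes the count was 30 of 149 (20.1%), near the 16.6% of all genes. With the GC and length trend removed it was 11 of 159. The remaining growth factor genes of the lists also lay on both sides. Kitl, the stem cell factor gene, was at 4.42, 3.85 and 5.37 CPM in N051 to N053 and at 2.11, 1.79 and 2.17 CPM in P051 to P053 (log2 fold change -1.16, SE 0.33, and -0.88 with the trend removed). Its groups did not overlap. Fgf7, a growth factor gene for epithelium that was named after its value was seen, was at -0.75 (SE 0.24), or -0.37 with the trend removed. Grn, the progranulin gene, was at 308 ± 45.2 and 449 ± 43.1 CPM (0.54, SE 0.16), and Hdgf, a hepatoma-derived growth factor gene, at 34.7 ± 3.32 and 48.3 ± 2.23 CPM (0.48, SE 0.15). With the trend removed these 2 were at 0.21 and 0.25.

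Levels were compared between the genes only per length, as deposited FPKM, which divides by transcript length and by the library total, over all 6 libraries. Igf1 led with a mean level of 55.8 ± 12.0 FPKM (SD, n = 6), at the 92.4th percentile of all genes tested. Gdf15 followed at 10.5 FPKM, Pdgfa at 9.95 and Itgb8 at 8.34, and these 3 overlapped in their ranges. Hbegf was next at 2.64 FPKM, apart from both neighbours. Below it came Tgfbr1 at 1.42, Vegfa at 1.06, Tgfb1 at 0.892, Pdgfb at 0.444 and Tgfbr2 at 0.286 FPKM, and the ranges of neighbours in this order overlapped. Igf1 thus stood alone at the top, and both Tgfb1 and its type II receptor stood among the lowest. No gene of the table overlaps any of the 10 on the genome.

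**Figure D4:**
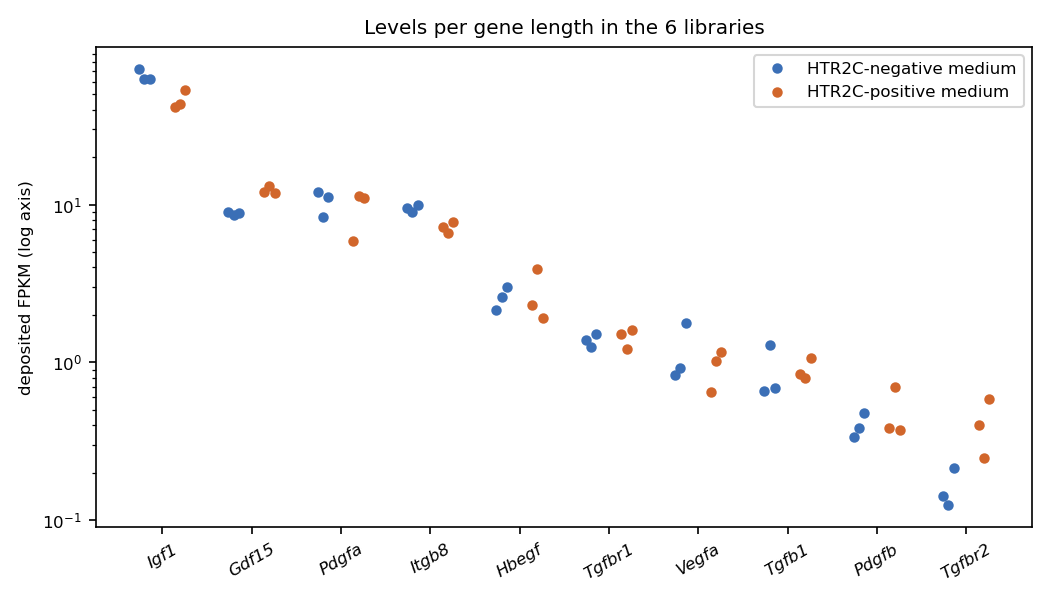
Deposited FPKM of the 10 genes in each of the 6 libraries, on a log axis, in order of mean level. Blue points are HTR2C-negative and orange points HTR2C-positive medium. Igf1 lies at 41.6 FPKM or more in every library and Tgfbr2 at 0.589 or less.

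The genes nearest in pattern were named by the smallest root mean square difference of log2 CPM, each gene centred on its own mean over the 6 libraries. For Igf1 they were Ccdc6 (0.043) and Bclaf1 (0.048), for Itgb8 Ell2 (0.046) and Vps54 (0.050), for Tgfb1 Mcm3ap and Gps2, and for Gdf15 S100a6 (0.028) and Rcbtb1. Pdgfa lay nearest to Cdkn1b (0.027) and D17H6S53E, Vegfa to Fam8a1 and Mmp3, and Tgfbr1 to Vapb and Msi2. Pdgfb and Hbegf, both highest in P052, shared Pank3 as a neighbour, beside Alpk2 and Ipmk. Tgfbr2 had no close neighbour, the nearest being Got2 (0.19) and Cmtm4 (0.20). These are likenesses over 6 libraries that share their depth and GC differences.

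**Figure D5:**
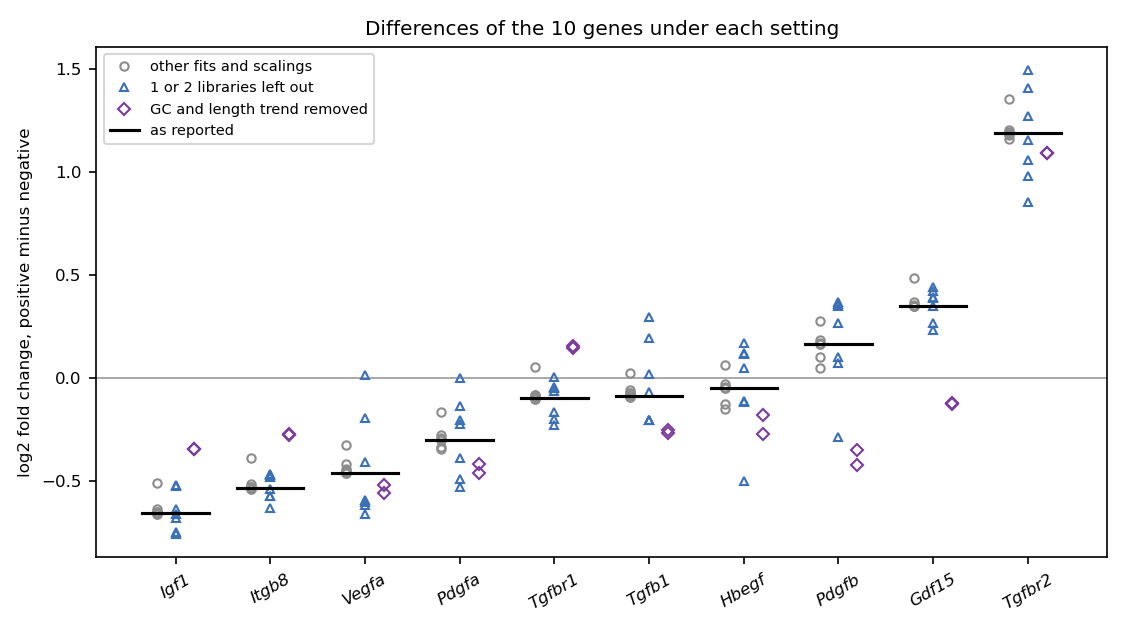
Log2 fold change of each of the 10 genes under every setting tried. Black bars are the values as reported, grey circles other fits and scalings, blue triangles fits without 1 or 2 libraries, and purple diamonds fits with the GC and length trend removed. Igf1, Itgb8 and Pdgfa stay below 0 and Tgfbr2 above 0 in all of these, while the other 6 have values on both sides.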

How the data were processed

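Messenger RNA of 6 samples was measured by RNA-seq, 3 per medium, and grouped by their labels. The deposited table gives, per the file headers, whole-number read counts per gene with no normalization, and FPKM values, which equal the count over the gene length and the library total (largest relative difference 3.80e-07). Per the submitters' processing notes the authors used StringTie, HISAT2, fastp and edgeR with GRCm39. Not given in the sources used here are strand use and other counting settings.

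The deposited counts were fitted with edgeR 4.0.16 under R 4.3.3 (filterByExpr, TMM factors, robust quasi-likelihood F test, no covariate) on the whole table, with Benjamini-Hochberg adjustment over all 10177 tested genes and a threshold of 0.05. Intervals come from the SE of that fit. The fit was also run on simulated data made from these libraries, with 200 changed genes. The simulated data held no GC trend and no likeness of single libraries across the groups. They therefore cannot vouch for the fit on the real libraries. Total counts of 12843971 to 16031723 limit the precision of the genes with few reads, and intervals cover no error outside these samples. The GC and length trend was removed per library with smooth curves (mgcv 1.9.3), for 10162 genes. Length was the gene length of the deposited table, and GC content was that of the longest GENCODE M21 transcript. That annotation is on GRCm38 and gave no coordinates of genes. Promoter letters are from RefSeq on GRCm38.p6.

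The 10 genes, the 12 pathway lists and the cell marker lists were chosen with earlier results of these data known. By rule the text names the 10 genes, up to 3 further genes of each list with the smallest p, and 2 genes nearest in pattern to each of the 10. Of the genes so taken, 1 is not reported here. Further list genes (Igf1r, Igf2r, Itgav, Itgb5, Adam17, Smad2, Smad3, Smad7, Pmepa1, Sparc, Fgf7, Tgfb2, Egln2, Ero1a, Itga2b, Gp9 and those said to have no count or to fail the filter) were added after their values were seen, for their role or to complete a count. Alternatives were scaling by total counts alone or by RLE factors, a filter of 1 CPM in 3 libraries or none, limma-voom (limma 3.58.1), DESeq2 1.42.0, a block for the replicate number, each library left out, N052 and P051 both left out, and the GC and length trend removed with and without the block. N052 and P051 were picked for their likeness across the groups in these same data, so leaving both out favours low p-values.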

Additional observations from a re-analysis of the deposited data

How the results depend on the processing

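Igf1, Itgb8, Pdgfa and Tgfbr2 kept their direction under each of the 16 alternatives. Igf1 passed the adjusted threshold at -0.64 with no count filter, -0.66 by DESeq2 and -0.64 without N052 and P051, and ranged from -0.76 (without N052, past it) to -0.52 with each library left out. Itgb8 passed it at -0.54 by DESeq2 and -0.58 without N052 and P051. With the GC and length trend removed, without and with the replicate block, the sign turned for Gdf15 (-0.13 and -0.12), Pdgfb (-0.35 and -0.42), Tgfbr1 (0.15 and 0.15) and Irs2 (-0.11 and -0.11). Total counts alone, which shift the median of all genes from 0.02 to 0.16, turned Hbegf (0.061), Tgfb1 (0.022) and Tgfbr1 (0.052), and leaving out N052 and P051 turned Hbegf (0.047) and Tgfb1 (0.30). With each library left out, values ran from -0.50 to 0.17 for Hbegf, -0.29 to 0.37 for Pdgfb, -0.21 to 0.20 for Tgfb1, -0.23 to 0.0017 for Tgfbr1, -0.66 to 0.015 for Vegfa and -0.58 to 0.19 for Pdgfrl. Genes called over the whole table numbered 422 with no count filter (206 higher, 216 lower), 394 by DESeq2 (133 and 261), 1107 without N052 and P051, and 0 to 206 with each library left out (206 without N052, 186 without P051). The 33 pathway genes at an unadjusted p under 0.05 became 11 with the trend removed (9.84% of all genes), 8 with the block added (6.26%), and 15 to 33 with each library left out, the lowest without N051 (8.06%). Of the 10 genes, 1 (Tgfbr2) had an unadjusted p under 0.05 with the trend removed and the block, against 6.26% of all genes. The cause of these shifts was not tested, and for genes with few reads, such as Tgfbr2 and Pdgfb, depth limits the precision.

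The labels give both groups the same replicate numbers. Deviations of same-numbered samples correlated at -0.19, -0.28 and 0.07 across genes, and the highest correlation was that of N052 with P051 (0.36). With 3 libraries per group these values cannot tell whether same-numbered samples share an animal, a culture or a batch. With the replicate block 0 genes were called, 1175 instead of 1690 had an unadjusted p under 0.05, 21 of the pathway genes did, and 3 of the 10, against 11.5% of all genes.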

Other observations

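In CPM scaled by TMM factors, 1 library within each group was often the lowest for these genes. N052 had the lowest CPM of the 3 HTR2C-negative libraries for 8 of the 10 genes, where it was lowest for 37.0% of all genes tested. P051 had the lowest CPM of the 3 HTR2C-positive libraries for 7 of the 10, where it was lowest for 34.9% of all genes tested. The exceptions for N052 were Tgfb1, for which it was the highest, and Hbegf. For P051 they were Hbegf, Tgfbr1 and Tgfbr2. These counts depend on the TMM factors, 1.06 for N052 and 1.13, the largest of all, for P051. In deposited FPKM, which is not scaled by them, N052 was also not the lowest for Vegfa and Pdgfb. By FPKM P051 was also not the lowest for Tgfb1, Gdf15, Pdgfb and Itgb8. The 10 genes share these libraries, so the counts are a description of 2 libraries and carry no test. The ratio of Pdgfa to Pdgfb FPKM, a further measure chosen after the values were seen, was 26.9 ± 7.62 with HTR2C-negative and 20.3 ± 8.01 with HTR2C-positive medium (SD of 3 libraries, exact two-sided permutation p = 0.3).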
